A study of Mus musculus with 18 samples.

Results

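The colony-stimulating factor axis was examined as 7 genes, which were the rows of the deposited gene table with the symbols Csf1, Il34, Csf1r, Csf2ra, Csf2rb, Csf2rb2 and Csf3r, of 53465 rows in all. All 7 were found, each in 1 row. They were followed in 18 RNA-seq libraries from 9 adult female C57BL/6J mice, 8 to 10 weeks old, whose spinal cord was contused at the level of vertebra 11 of the thorax (spinal cord injury, SCI). At 48 h after SCI, 3 mice (numbered 1, 2 and 3) received 1 µL of PBS into the cord, 3 mice (5, 6 and 7) received 100 ng of recombinant IL-13 (rIL-13) and 3 mice (8, 9 and 10) received 100 ng of recombinant IL-4 (rIL-4). Microglia and macrophages were sorted from the lesioned cord of each mouse 24 h later, the former as CD45low and the latter as CD45high cells that were CD11b+ and F4/80+. Every group of 3 libraries therefore came from injured and injected cord, and the PBS mice were the control.

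CSF1 and IL-34 are the ligands of CSF1R, the receptor tyrosine kinase on which microglia and most tissue macrophages depend for survival and proliferation. GM-CSF signals through its own alpha chain, encoded by Csf2ra, together with the common beta chain, encoded by Csf2rb, which IL-3 and IL-5 also use with their own alpha chains. Mice carry an additional beta chain gene, Csf2rb2, whose product serves IL-3. Csf3r encodes the receptor of G-CSF, known above all from neutrophils and their precursors.

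Csf2rb (ENSMUSG00000071713.4, chromosome 15 from 78325752 to 78353847, plus strand) and Csf2rb2 (ENSMUSG00000071714.5, chromosome 15 from 78282507 to 78305721, minus strand, both GRCm38) are neighbours that point away from each other, with 20030 bases between them. Their coding sequences of 2688 and 2634 bases are each split over 13 coding exons and were identical at 95.2% of 2628 aligned positions. The sequences of a pair of exons are shown because they set how far reads of 76 bases can tell both genes apart. Among exons of equal length between 60 and 300 bases, coding exon 12 was the most alike (1 mismatch in 104 bases) and coding exon 10 the least alike (11 mismatches in 91 bases). They are taken from GENCODE M21 transcripts and printed in the direction of the coding strand, with every base that differs between the genes in capitals.
Csf2rb coding exon 12, chr15:78347374-78347477, plus strand: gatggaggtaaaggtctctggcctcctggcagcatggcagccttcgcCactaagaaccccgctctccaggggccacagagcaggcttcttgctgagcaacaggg
Csf2rb2 coding exon 12, chr15:78285980-78286083, minus strand: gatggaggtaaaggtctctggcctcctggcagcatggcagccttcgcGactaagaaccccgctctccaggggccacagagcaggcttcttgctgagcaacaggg
Csf2rb coding exon 10, chr15:78346383-78346473, plus strand: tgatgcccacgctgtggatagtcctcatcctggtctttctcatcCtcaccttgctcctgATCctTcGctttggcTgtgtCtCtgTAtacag
Csf2rb2 coding exon 10, chr15:78286973-78287063, minus strand: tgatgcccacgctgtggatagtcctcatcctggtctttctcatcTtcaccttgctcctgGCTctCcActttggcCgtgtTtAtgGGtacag
Over the longest protein-coding transcripts, 507 of 4665 stretches of 76 bases in Csf2rb2 (10.9%) and 507 of 4825 in Csf2rb (10.5%) also occurred in the other gene without a mismatch. These counts are for single reads, while sequencing was in pairs, where a read can be placed by its mate. Pairs that fit both genes were divided between them by the authors' software, so that the split between the paralogs is uncertain where their sum is not.

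The 250 bases before the start of Csf2rb2 are shown because that gene rose in microglia with rIL-4, as described below. RefSeq's promoter table for GRCm38.p6 gives them as chr15:78305722-78305971 on the minus strand. Capitals mark the only match to TTCNNNGAA, the spaced palindrome that STAT proteins recognise, searched on both strands with N as any base.
Csf2rb2 upstream sequence: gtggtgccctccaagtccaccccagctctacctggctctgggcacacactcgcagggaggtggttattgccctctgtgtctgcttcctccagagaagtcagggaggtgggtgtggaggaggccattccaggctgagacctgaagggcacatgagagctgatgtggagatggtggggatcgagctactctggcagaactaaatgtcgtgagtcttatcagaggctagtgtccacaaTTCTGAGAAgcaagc
This match began 15 bases before the start, and such a match was held by 7.02% of 32851 promoters in the same table. The form with 4 bases in its spacer, which STAT6 prefers, had 0 matches in this sequence and was held by 5.85% of the promoters. Promoters of the same length for Csf1, Csf2ra and Csf3r held 0 matches to either form. For these and Csf2rb2 there were also 0 matches to GAGGAAGT, a form of the PU.1 motif that 2.44% of the promoters held on either strand. The promoters of Csf1r, Csf2rb and Il34 were not examined.

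Of the other genes, Csf1 (ENSMUSG00000014599.10) lies on chromosome 3 of GRCm38 from 107741048 to 107760469, Il34 (ENSMUSG00000031750.15) on chromosome 8 from 110741829 to 110805924 and Csf3r (ENSMUSG00000028859.14) on chromosome 4 from 126024550 to 126044440. Csf2ra (ENSMUSG00000059326.6) lies on chromosome 19 from 61223957 to 61228429 and Csf1r (ENSMUSG00000024621.15) on chromosome 18. Il34 overlaps the antisense genes Gm15894 and Gm15895, and Csf1r overlaps Hmgxb3 on the opposite strand. The libraries do not mark strand, so that reads from such overlaps cannot be told apart.

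Each library held between 35961305 and 45849829 counts, with a median of 39570356. The sort was checked with marker lists, whose levels were summed as CPM (counts scaled to the size of each library). Of 10 microglia markers such as Tmem119 and P2ry12, all were found in every group, with sums between 2715 and 11655 CPM in microglia and between 482.5 and 4582 in macrophages. These ranges overlapped, because the sum was between 2715 and 4634 in rIL-4 microglia and between 2957 and 4582 in PBS macrophages. The sum of 10 markers of monocyte-derived macrophages such as Ccr2 and Ly6c2 separated the cell types, with 847.1 to 2308 CPM in microglia and 7896 to 16278 in macrophages. Microglia libraries also carried 9 of 9 fibroblast and pericyte markers (230.1 to 8301 CPM, against 0.2945 to 9.5 in macrophages) and 6 of 6 endothelial markers (702.5 to 2188 CPM, against 34.91 to 100.6). Macrophage libraries carried 12 of 12 neutrophil markers, at 221.4 to 3209 CPM. The share of counts from the 13 mitochondrially encoded protein genes was 2.56% ± 0.417 (SD, n = 3) in the microglia of PBS mice, 3.4% ± 0.126 in those of rIL-13 mice and 8.86% ± 3 in those of rIL-4 mice, and at most 1.41% in any macrophage library. A mouse of each treatment stood apart in several of these measures. Mice 2, 6 and 9 had the lowest microglia marker sum of their treatment in both cell types and the highest neutrophil marker sum in macrophages, and were the mice whose microglia held Csf3 at 268, 224 and 312 counts, where the other microglia had at most 26. The labels name no batch that joins these mice.

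Levels between genes were compared per kilobase of exon. Csf1r had the highest level of the 7 genes in every group, at 461 ± 145 CPM per kb (SD, n = 3) in PBS microglia and 267 ± 64.4 in PBS macrophages. It lay above 99.6% of the genes tested in PBS microglia and above 98.8% in PBS macrophages. In PBS microglia, Csf3r followed with 36.2 ± 11.7 CPM per kb, then Csf2ra with 23.2 ± 3.91, Csf2rb with 14.2 ± 1.7, Csf2rb2 with 10.5 ± 1.64, Il34 with 8.02 ± 1.28 and Csf1 with 5.49 ± 0.793. Of these neighbours, Csf3r and Csf2ra, and Csf2rb2 and Il34, were closer to each other than the sum of their SDs. In PBS macrophages, Csf2ra (62.3 ± 4.79 CPM per kb), Csf3r (60.01 ± 3.82), Csf2rb2 (52.4 ± 4.72) and Csf2rb (47.7 ± 1.04) lay close together, and Csf1 was far below with 5.32 ± 2.11. With the longest protein-coding transcript as the length, Csf2rb had 70.8 CPM per kb there and ranked above Csf3r and Csf2rb2, so that the order of these 4 receptor genes depends on the length used. Csf1r at the top and both ligands at the bottom held with either length in PBS microglia and PBS macrophages.

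**Figure D1:**
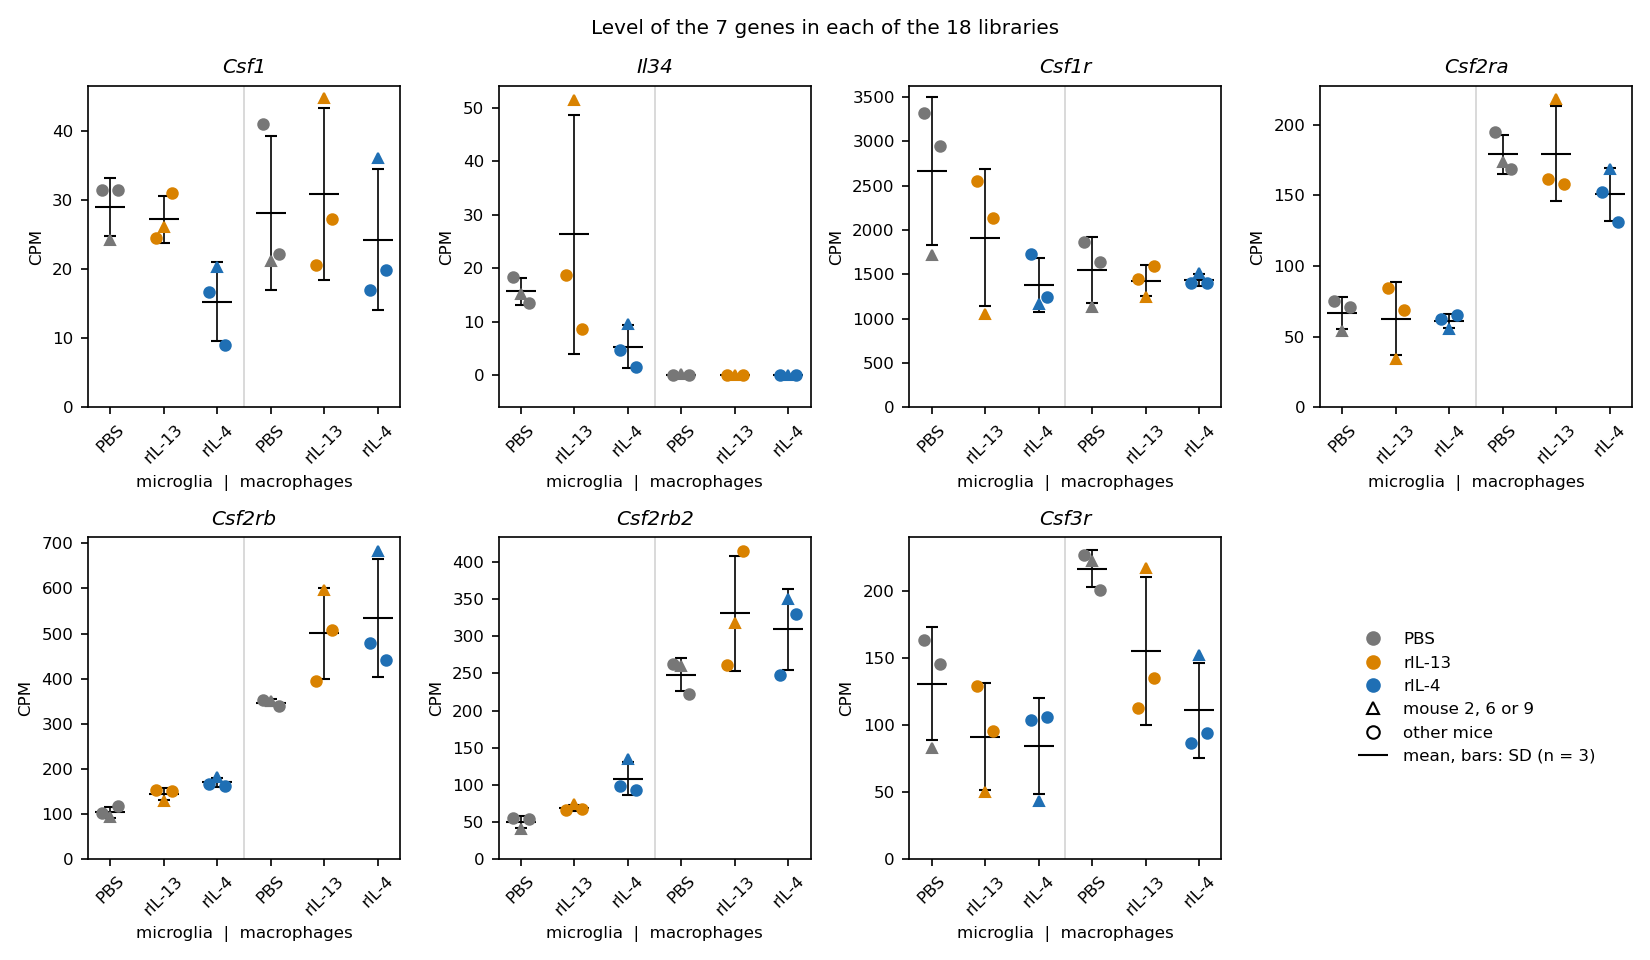
Level of each gene in CPM (vertical axis, linear) in the 18 libraries, by treatment and cell type. Points are mice, triangles are mice 2, 6 and 9, and horizontal marks with bars are the mean ± SD of 3 mice. The 9 macrophage libraries lie above the 9 microglia libraries for Csf2ra, Csf2rb and Csf2rb2, and Il34 lies near 0 in macrophages.

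Differential expression (DE) was tested with edgeR's quasi-likelihood test, with p-values adjusted by the Benjamini-Hochberg method over all genes tested and a threshold of 0.05. Microglia and macrophages from the same mice differed in most of the 7 genes. With PBS, 6 of 7 were DE, where 40.9% of all genes tested were, and 4 of 7 were DE with rIL-13 (26.7% of all genes) and with rIL-4 (23.4%). Of the 6, Il34 and Csf1r were higher in microglia (24.5% of all genes were) and the 4 receptor genes Csf2ra, Csf2rb, Csf2rb2 and Csf3r were higher in macrophages (16.3%). With rIL-13, Il34 was higher in microglia (17.2% of all genes) and Csf2ra, Csf2rb and Csf2rb2 were higher in macrophages (9.46%), and with rIL-4 the same split was found (13.4% and 9.97%).

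Between treatments, fewer of the genes were DE, and the comparisons with rIL-4 and with rIL-13 share the PBS mice. Against PBS, rIL-4 raised Csf2rb and Csf2rb2 in microglia, so that 2 of 7 genes were DE where 2.22% of all genes were (1.33% higher and 0.887% lower), and raised Csf2rb in macrophages, 1 of 6 genes tested where 14% of all genes were DE (6.77% higher and 7.2% lower). With rIL-13, 0 of 7 genes were DE in microglia by edgeR and by DESeq2, with 2 at an unadjusted p under 0.05 (1208 of 15566 genes in all), and 0.366% of all genes were DE (0.283% higher and 0.0835% lower). In macrophages, 0 of 6 were DE with rIL-13 by either tool, with 2 at an unadjusted p under 0.05 (2433 of 13606 genes in all), and 4.19% of all genes were (2.53% higher and 1.66% lower). Between rIL-4 and rIL-13, 0 of 7 genes were DE in microglia by edgeR (0.0385% of all genes were), with 3 at an unadjusted p under 0.05 (1773 of 15566 genes in all) and 2 called by DESeq2 (557 of 15566), and in macrophages 0 of 6 were DE by either tool (0.25% of all genes), with 0 at an unadjusted p under 0.05.

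**Figure D2:**
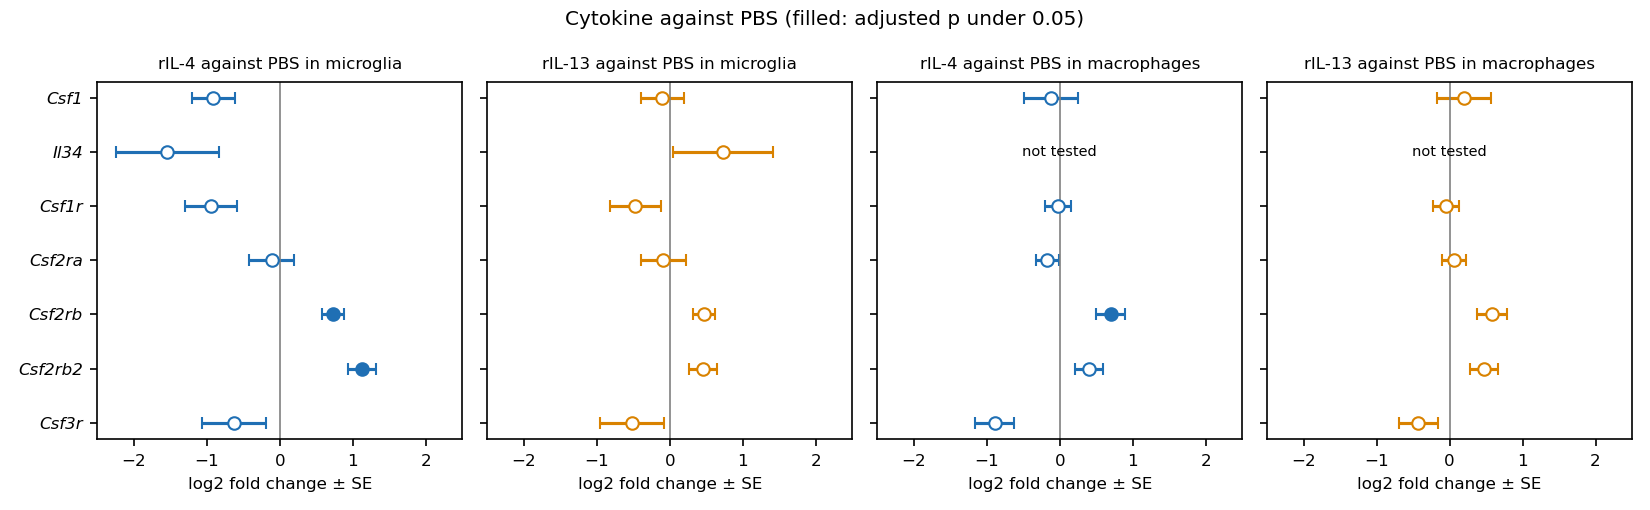
Log2 fold change ± SE (horizontal axis) of each gene between a cytokine and PBS in microglia and macrophages, from edgeR. Filled points had an adjusted p under 0.05. Csf2rb lies to the right of 0 in all 4 panels, and is filled with rIL-4 only, as is Csf2rb2 in microglia.

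Of the ligands of CSF1R, Il34 was found in every microglia library and was near absent from macrophages. It was at 18.5, 15.1 and 13.6 CPM in the microglia of PBS mice 1, 2 and 3, at 18.8, 51.5 and 8.7 in those of rIL-13 mice 5, 6 and 7, and at 4.79, 9.63 and 1.615 in those of rIL-4 mice 8, 9 and 10. All rIL-4 libraries lay below all PBS libraries, and the rIL-13 library of mouse 6 was higher than any other. The 9 macrophage libraries held 12 Il34 counts in all, which were 1 and 10 in PBS mice 1 and 2 and 1 in rIL-13 mouse 6. With PBS, pooled counts of Il34 were 143-fold higher in microglia on the TMM scale of the CPM (95% exact interval 80 to 287, counting error only; 182-fold without TMM factors) and was DE (adjusted p = 0.000149). Since 10 of the 11 macrophage counts were from mouse 2, the ratio without that mouse was 1090 (194 to 42900), on 1 count. With rIL-13, the ratio was 2600 (466 to 103000) on 1 count in macrophages (3520 without TMM factors), and without mouse 6, where macrophages held 0 counts, it was at least 148-fold higher than the level of 3 counts per macrophage library. With rIL-4, the mean of the microglia was at least 72.4-fold higher than that level with all mice and at least 44-fold without mouse 9, and mouse 10 alone was at 21.9 times it. In bulk libraries, fewer cells of a type and less RNA per cell cannot be told apart.

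Il34 did not pass the threshold between treatments in microglia with edgeR. Its log2 fold change with rIL-4 against PBS was -1.54 ± 0.71 (SE, adjusted p = 0.325), and between -2.30 and -1.11 over 14 alternatives. With rIL-13 against PBS it was 0.73 ± 0.69 (adjusted p = 1), which turned to -0.17 without mouse 6. Between rIL-4 and rIL-13 it was -2.26 ± 0.72 (adjusted p = 0.341 in edgeR and 0.0336 with DESeq2's Wald test) and was -1.37 without rIL-13 mouse 6. The fibroblast and pericyte markers (Col1a1, Col1a2, Col3a1, Dcn, Lum, Bgn, Pdgfra, Pdgfrb and Rgs5) moved with it. Their sum was 2531, 3700 and 2792 CPM with PBS, 1865, 8301 and 1306 with rIL-13 and 1607, 935.9 and 230.1 with rIL-4, so that both Il34 and the markers were highest in mouse 6 and lowest in mouse 10. The microglia gate required CD45, CD11b and F4/80, which fibroblasts and pericytes do not carry. All 9 of their markers were still found in these libraries, and the part of such cells in the level of Il34 was not tested.

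Csf1, the other ligand, was present in both cell types at like levels, with 24.2, 31.35 and 31.5 CPM in PBS microglia and 21.1, 22.2 and 41.0 in PBS macrophages. In microglia it was at 24.5, 26.0 and 31.0 CPM with rIL-13 and at 9, 16.6 and 20.3 with rIL-4, where every library was below those of the other treatments. The log2 fold change with rIL-4 was -0.91 ± 0.30 against PBS (adjusted p = 0.176) and -0.81 ± 0.30 against rIL-13 (adjusted p = 0.388), neither past the threshold in the alternatives run (lowest adjusted p 0.0777, with DESeq2). In macrophages, Csf1 spread from 20.6 to 44.7 CPM with rIL-13 and from 17.0 to 36.0 with rIL-4, and mouse 6 and mouse 9 were highest. Both ranges overlapped that with PBS. Mouse 10, lowest for Csf1 in microglia, was also lowest for the fibroblast and pericyte sum, and mice 6 and 9 also had the highest neutrophil sum of their groups in macrophages. With PBS, the macrophages of mouse 2 had the highest neutrophil sum (1660 CPM) and the lowest Csf1 (21.1 CPM). The gates select against fibroblasts, pericytes and neutrophils, whose markers were still found, as given above. The part of such cells in the level of Csf1 was not tested.

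Csf1r, their receptor, was at 3321, 1722 and 2949 CPM in PBS microglia, at 2557, 1054 and 2132 with rIL-13 and at 1733, 1166 and 1242 with rIL-4. The level fitted by edgeR was 1.92-fold lower with rIL-4 than with PBS, a log2 fold change of -0.94 ± 0.36 (adjusted p = 0.229 in edgeR, and 0.0479 with DESeq2). The groups overlapped because mouse 2 was at 1722 CPM and mouse 8 at 1733. Macrophages stayed within a narrower range, with 1134 to 1861 CPM with PBS, 1239 to 1588 with rIL-13 and 1396 to 1514 with rIL-4. With PBS, Csf1r was higher in the microglia than in the macrophages of each mouse, 1.78-fold in mouse 1, 1.52-fold in mouse 2 and 1.81-fold in mouse 3, and was DE (log2 fold change 0.82 ± 0.26, adjusted p = 0.0337). The adjusted p rose to 0.116 without the microglia of mouse 1, 0.1 without those of mouse 3, 0.118 without the macrophages of mouse 2 and 0.0825 without those of mouse 3, and was 0.000962 with the mouse as a block. With rIL-4 the ratio was 1.24, 0.77 and 0.886 in mice 8, 9 and 10, and Csf1r did not pass the threshold (adjusted p = 0.863). With rIL-13 the log2 difference was 0.45 ± 0.32 (adjusted p = 0.365), and 0.72 without the microglia of mouse 6 (adjusted p = 0.0372).

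The level of Csf1r in microglia was ordered much as the sum of the 10 microglia markers, which did not include it. That sum was 11655, 6529 and 10799 CPM with PBS, 7458, 2949 and 5572 with rIL-13 and 4634, 2715 and 3097 with rIL-4. Within each treatment, mouse 2, 6 or 9 was lowest in both. Whether Csf1r moved beyond the general level of microglia transcripts was not tested.

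**Figure D3:**
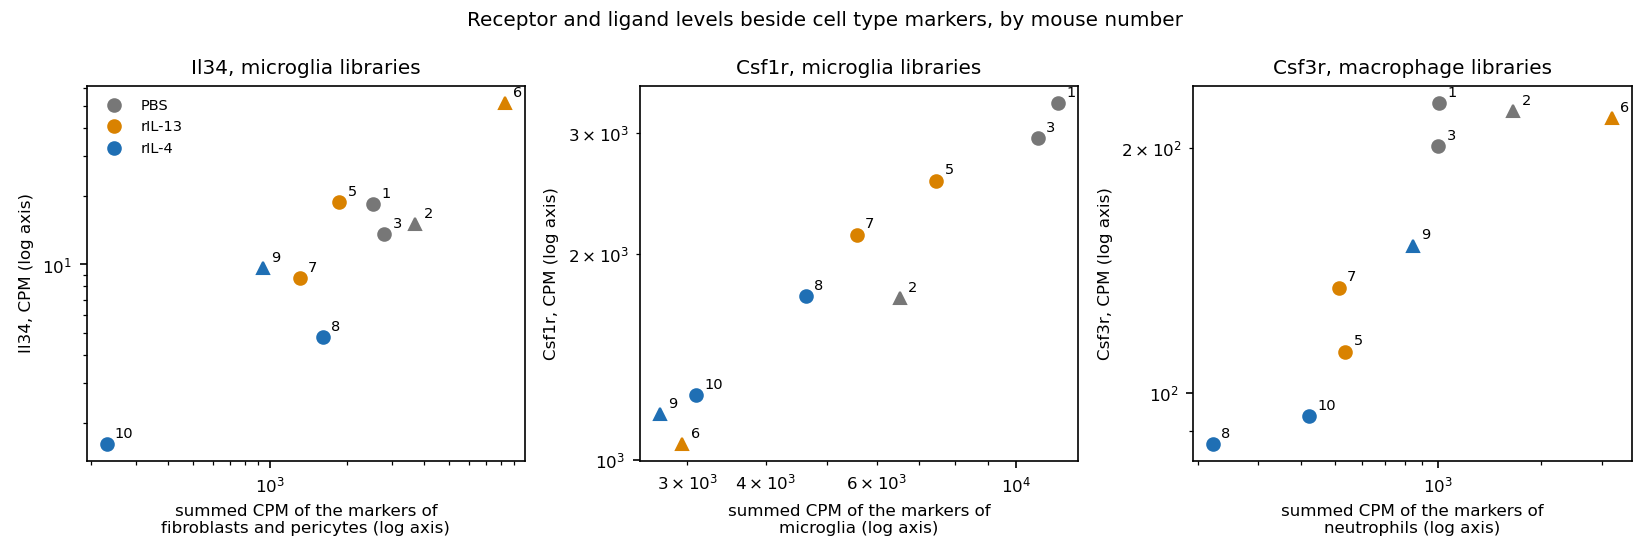
CPM of Il34 and Csf1r in 9 microglia libraries and of Csf3r in 9 macrophage libraries (vertical log axes) against the summed CPM of a marker list (horizontal log axes), with each point labelled by its mouse. Mouse 6 is highest and mouse 10 lowest for Il34 and the fibroblast and pericyte sum, and mice 8 and 10 are lowest for Csf3r and the neutrophil sum.

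Csf2ra, Csf2rb and Csf2rb2 were each higher in macrophages than in microglia with all 3 treatments. Csf2ra was at 75.1, 53.9 and 71.0 CPM in the microglia of PBS mice 1, 2 and 3 and at 194.5, 174 and 168.5 in their macrophages, a log2 difference between microglia and macrophages of -1.39 ± 0.15 (adjusted p = 0.000162). The macrophages of each PBS mouse held between 2.37 and 3.22 times the level of its microglia. The difference was -1.49 ± 0.34 with rIL-13 (adjusted p = 0.0158), where mouse 6 had a ratio of 6.38 and the call was lost without its macrophages (adjusted p = 0.057), and -1.30 ± 0.16 with rIL-4 (adjusted p = 0.00107). Neither cytokine changed Csf2ra past the threshold. Its range in microglia was 34.2 to 84.6 CPM with rIL-13 and 55.6 to 65.2 with rIL-4, and in macrophages 158 to 218 and 131 to 168. Mice 6 and 9, highest for Csf2ra in macrophages of their groups, were also highest there for the neutrophil markers (3209 and 846.2 CPM). With PBS, mouse 2 was highest for these markers (1660 CPM) and mouse 1 for Csf2ra (194.5 CPM). The part of neutrophil RNA in the level of Csf2ra was not tested. All 3 rIL-4 macrophage libraries lay just below the PBS ones, and the log2 fold change was -0.17 ± 0.16 (adjusted p = 0.548).

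Csf2rb, the common beta chain, was at 102, 91.8 and 116 CPM in PBS microglia and at 353, 349 and 338 in PBS macrophages. The log2 difference was -1.72 ± 0.12 with PBS (adjusted p = 1.98e-05), -1.78 ± 0.20 with rIL-13 (adjusted p = 0.00103) and -1.66 ± 0.20 with rIL-4 (adjusted p = 0.00108). In each of the 9 mice, macrophages held between 2.58 and 4.67 times as much as microglia. Csf2rb2 differed more with PBS, with 54.4, 40.8 and 54.1 CPM in microglia and 263, 259 and 222.5 in macrophages (log2 difference -2.29 ± 0.15, adjusted p = 1.4e-05). It was -2.25 ± 0.21 with rIL-13 (adjusted p = 0.000488) and -1.52 ± 0.22 with rIL-4 (adjusted p = 0.00223). Both differences held in every alternative.

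**Figure D4:**
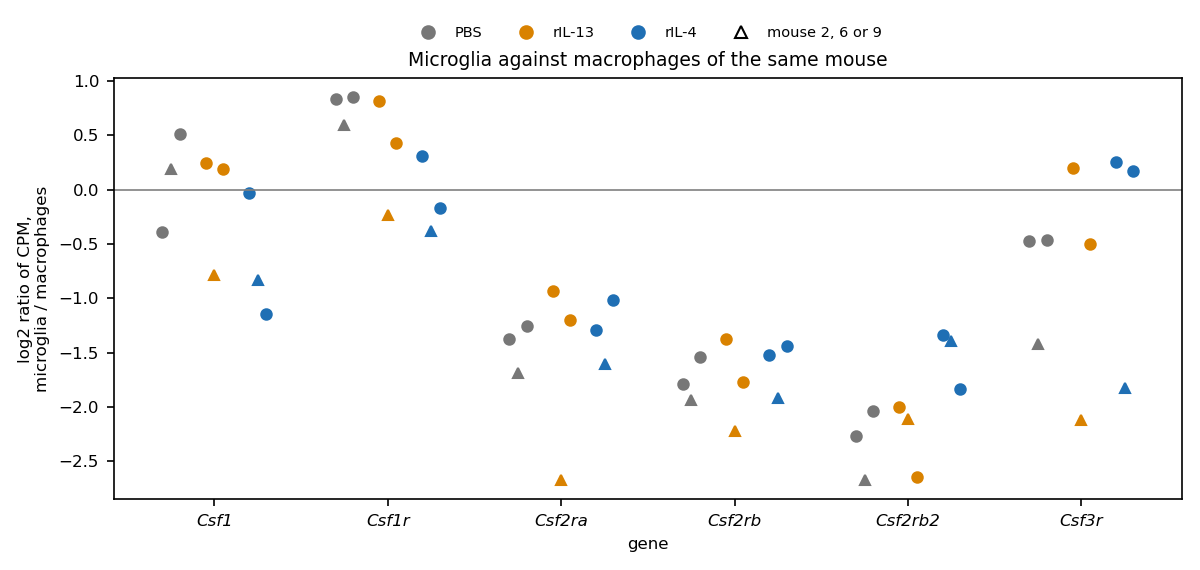
Log2 ratio of the CPM in microglia to that in macrophages of the same mouse (vertical axis) for 6 genes, by treatment. Points are mice and triangles are mice 2, 6 and 9. All 9 mice lie below 0 for Csf2ra, Csf2rb and Csf2rb2, and the rIL-4 mice lie higher than the PBS mice for Csf2rb2. Il34 is left out because it had 3 counts or fewer in 8 of 9 macrophage libraries.

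With rIL-4, Csf2rb reached 167, 181 and 162 CPM in microglia, above all PBS libraries, a rise of 0.73 ± 0.15 on the log2 scale (1.66-fold, adjusted p = 0.0425). Csf2rb2 reached 98.0, 134 and 92.8 CPM, a rise of 1.13 ± 0.19 (2.2-fold, adjusted p = 0.0199). The rIL-13 libraries lay between the other treatments for both genes, with 153, 128 and 150 CPM for Csf2rb (log2 fold change against PBS 0.47 ± 0.15, adjusted p = 0.429) and 65.4, 73.6 and 66.6 CPM for Csf2rb2 (0.46 ± 0.19, adjusted p = 0.612). The 3 treatments did not overlap in either gene. Between the cytokines, Csf2rb2 had a log2 fold change of 0.68 ± 0.19 (adjusted p = 0.304 in edgeR and 0.0451 with DESeq2). Microglia libraries also held macrophage markers, whose sum was 1392, 1318 and 2308 CPM with rIL-4 against 847.1, 1252 and 1196 with PBS. The endothelial sum was 1478, 1902 and 1545 CPM with rIL-4 against 1454, 1049 and 702.5 with PBS, while the microglia marker sum was lower with rIL-4 and the mitochondrial share higher, as given above, both without overlap. The part of these measures in the rise was not tested.

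Both calls in microglia rested on all of the control mice. Csf2rb had an adjusted p of 0.182, 0.16 and 0.0946 without PBS mouse 1, 2 or 3, of 0.0871, 0.115 and 0.0969 without rIL-4 mouse 8, 9 or 10, and of 0.0614 when all genes with a count were tested. Csf2rb2 had an adjusted p of 0.0813, 0.0746 and 0.0764 without PBS mouse 1, 2 or 3. Without mice 2, 6 and 9 together, the log2 fold changes were 0.61 (adjusted p = 0.18) and 0.83 (adjusted p = 0.102). The direction held for both genes in all of these fits.

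In macrophages, Csf2rb was at 395, 597 and 509 CPM with rIL-13 and at 478, 683.5 and 441 with rIL-4, each above all PBS libraries. Its log2 fold change was 0.70 ± 0.20 with rIL-4 (1.63-fold, adjusted p = 0.0381) and 0.58 ± 0.20 with rIL-13 (adjusted p = 0.142). The microglia markers moved the other way in these libraries, where 10 of 10 fell with rIL-4 and their sum was 482.5 to 884.1 CPM against 2957 to 4582 with PBS, and their part was not tested. The call with rIL-4 was lost without PBS mouse 1 (adjusted p = 0.118), mouse 2 (0.0969) or mouse 3 (0.131), and without rIL-4 mouse 9 (0.117), where the log2 fold change was 0.47. It was also lost when the counts of both paralogs were summed (0.59 ± 0.18, adjusted p = 0.0554) and without mice 2, 6 and 9 together (0.50, adjusted p = 0.0685). Csf2rb2 was at 261, 318 and 415 CPM with rIL-13 and at 248, 350 and 330 with rIL-4 and overlapped PBS in both, with log2 fold changes of 0.47 ± 0.19 (adjusted p = 0.221) and 0.40 ± 0.19 (adjusted p = 0.197). In microglia, the summed paralogs rose with rIL-4 by 0.88 on the log2 scale.

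The share of Csf2rb2 in the counts of both paralogs described their balance, which division of shared reads can affect. It was 34.8%, 30.8% and 31.7% in PBS microglia, 29.9%, 36.5% and 30.8% with rIL-13 and 37%, 42.5% and 36.4% with rIL-4. The rIL-4 mean of 38.6% lay 6.21 points above that with PBS, with no overlap, and the exact permutation test gave its smallest two-sided p of 0.1 (0.6 after adjustment over 6 comparisons). In macrophages the means were 41.7% with PBS, 39.8% with rIL-13 and 36.9% with rIL-4, with exact permutation p of 0.4 or more in each comparison. A library's share rested on 6167 to 40893 counts, and its Wilson 95% interval was, for example, 29.6% to 31.9% in PBS mouse 2.

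Csf3r was at 164, 82.95 and 146 CPM in PBS microglia, 129, 49.9 and 95 with rIL-13 and 104, 42.9 and 106 with rIL-4. Mice 2, 6 and 9 were lowest in each group, and the log2 fold changes against PBS of -0.52 ± 0.44 with rIL-13 and -0.63 ± 0.44 with rIL-4 did not pass the threshold (adjusted p = 0.991 and 0.57). In macrophages it was at 227, 222 and 201 CPM with PBS, 112.5, 217 and 135 with rIL-13 and 86.7, 152 and 93.8 with rIL-4. All rIL-4 libraries lay below all PBS libraries, with a log2 fold change of -0.89 ± 0.27 that missed the threshold (adjusted p = 0.0525). It passed with the 6 libraries alone (0.0255), where each library had to hold 10 counts of a gene (0.0487), with all genes with a count (0.0126) and with DESeq2 (0.015). Without rIL-4 mouse 9 it was -1.20 (adjusted p = 0.0154), and without mice 2, 6 and 9 together Csf3r fell by 1.15 on the log2 scale with rIL-4 (adjusted p = 0.00154) and by 0.72 with rIL-13 (adjusted p = 0.0302).

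Neutrophil markers moved with Csf3r in macrophages. Their sum was 1006, 1660 and 1002 CPM with PBS, 537.4, 3209 and 514.7 with rIL-13 and 221.4, 846.2 and 421.6 with rIL-4. Mice 6 and 9 were thus highest of their groups in both, while with PBS mouse 2 was highest for the sum and mouse 1 for Csf3r. The part of neutrophil RNA in the level of Csf3r was not tested. The macrophage gate required F4/80, which the study's cytometry took granulocytes to lack, and macrophage libraries still held all 12 neutrophil markers. In microglia, where that sum was at most 193.6 CPM, mice 6 and 9 had the lowest Csf3r of their groups. Between cell types, Csf3r was lower in PBS microglia than in PBS macrophages, with a log2 difference of -0.70 ± 0.23 (adjusted p = 0.0387). This call was lost without the macrophages of mouse 1 (adjusted p = 0.101), mouse 2 (0.0993) or mouse 3 (0.075), with all 18 libraries in 1 model (0.239) and without mouse 2 altogether (0.0516). It was -0.74 ± 0.39 with rIL-13 (adjusted p = 0.214) and -0.40 ± 0.37 with rIL-4 (adjusted p = 0.517), and these became -0.12 without mouse 6 and 0.25 without mouse 9.

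Whether the cell types responded differently was tested with all 18 libraries. Il34 is left out, being too low in macrophages for a response. For rIL-4, 0 of the other 6 genes were DE in this interaction by edgeR and by DESeq2, with 2 at an unadjusted p under 0.05 (2050 of 16535 genes in all), and 0.992% of all genes were DE. These were Csf1r, whose response was lower in microglia by 0.95 on the log2 scale (a difference of -0.95 ± 0.41, adjusted p = 0.355), and Csf2rb2, whose response was higher by 0.71 ± 0.27 (adjusted p = 0.277). For rIL-13, 0 of 6 were DE by either tool, with 0 at an unadjusted p under 0.05, and 0.0242% of all genes were DE.

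Of 8 other ligands and receptors of the family, Csf2, Il3, Il5 and Il5ra had at most 17 counts in any library. Il3 and Csf2, which encode IL-3 and GM-CSF, had 0 and 3 counts in all 18 libraries together, and Il5ra, the alpha chain of the IL-5 receptor, 4 counts. Il5 was found with 17 counts in the microglia of PBS mouse 3 and 4 counts in the macrophages of rIL-13 mouse 5. Csf3, which encodes G-CSF, was found in microglia at 5.76, 4.77 and 5.97 CPM in mice 2, 6 and 9, and at up to 0.596 CPM in the others. Il3ra, the alpha chain of the IL-3 receptor, was at 6.73 to 11.1 CPM in microglia and 10.8 to 20.0 in macrophages, was lower in PBS microglia than in PBS macrophages (log2 difference -1.28 ± 0.19, adjusted p = 0.000786; 0.0671 with rIL-13 and 0.058 with rIL-4) and had an adjusted p of at least 0.841 with either cytokine against PBS. Ptprz1 and Sdc1 encode other binding partners of IL-34. With rIL-4, Ptprz1 fell in microglia from 43.9, 39.5 and 40.4 CPM with PBS to 2.51, 8.16 and 6.57 (adjusted p = 0.0287), with 17.1, 35.8 and 9.9 with rIL-13 (adjusted p = 0.724), and in macrophages from 43 counts in each PBS library to 0, 6 and 2 counts (adjusted p = 0.0136). Sdc1 fell in macrophages from 81.6, 96.2 and 96.6 CPM to 23.0, 45.6 and 29.7 with rIL-4 (log2 fold change -1.40 ± 0.34, adjusted p = 0.0216). With rIL-13, macrophages held 17.6, 47.35 and 37.8 CPM of Sdc1 (-1.37 ± 0.34, adjusted p = 0.0533) and 1, 7 and 4 counts of Ptprz1 (adjusted p = 0.0586), close to the values with rIL-4. The fibroblast and pericyte sum in microglia and the microglia and neutrophil marker sums in macrophages were also lower with rIL-4 than with PBS. Their part in the fall of Ptprz1 and of Sdc1 was not tested. In rIL-4 microglia, Sdc1 overlapped PBS (adjusted p = 0.201).

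Among 24 signal transducers of these receptors, rIL-4 raised 1 and lowered 0 in microglia, where 2.22% of all genes were DE, and raised 4 and lowered 4 in macrophages, where 14% were. Fyn, a Src family kinase, rose 3.91-fold in microglia and 5.64-fold in macrophages, and Jak2, the kinase bound to the common beta chain, rose 5.88-fold in macrophages (log2 fold change 2.56 ± 0.26, adjusted p = 0.000247). In microglia Jak2 had a log2 fold change of 2.24 ± 0.55 (adjusted p = 0.0774). Plcg2, which encodes a phospholipase, fell 1.67-fold in macrophages. Tyrobp, the adaptor of TREM2 that also takes part in CSF1R signalling, fell 1.57-fold in rIL-4 macrophages (adjusted p = 0.0201) and had a log2 fold change of -0.23 ± 0.24 in rIL-4 microglia (adjusted p = 0.756). With rIL-13, 0 of 24 changed in microglia by edgeR, and in macrophages, where 4.19% of all genes were DE, Fyn rose 3.2-fold and Jak2 rose 3.58-fold. The median log2 fold change of the list with rIL-4 was -0.14 in microglia and 0.04 in macrophages, where that of all genes tested was -0.06 and 0.02.

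The next list held genes that shed, turn over or restrain the receptors. Of 14, rIL-4 raised 4 and lowered 1 in microglia and raised 5 and lowered 2 in macrophages, and rIL-13 raised 1 and 5 and lowered 0 in both. Of all genes, rIL-4 raised 1.33% and lowered 0.887% in microglia and raised 6.77% and lowered 7.2% in macrophages, and rIL-13 raised 0.283% and 2.53%. In rIL-4 microglia, Socs1 rose 14.9-fold, the ubiquitin ligase gene Cblb 4.2-fold and Socs2 4.57-fold, while Socs3 fell 1.85-fold. In rIL-4 macrophages, Cblb rose 3.61-fold, Cish 27.8-fold, the protease gene Furin 2.08-fold and Socs2 12.9-fold. The SOCS and CISH proteins are feedback inhibitors of JAK-STAT signalling. The median of the list was 0.30 in rIL-4 microglia and 0.02 in rIL-4 macrophages.

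Of 10 transcription factors of myeloid receptor genes, rIL-4 lowered Fos in microglia (2.57-fold), where 0.887% of all genes fell. Of the 9 tested in macrophages it lowered Irf8 (1.5-fold) and Fos (1.57-fold), where 7.2% of all genes fell. It raised 0 in either, and Spi1, which encodes PU.1, was not DE with either cytokine against PBS. Of 16 targets of growth factor signalling, rIL-4 raised Il1rn 2.73-fold and lowered Ccnd1 1.92-fold in microglia, where 1.33% of all genes rose and 0.887% fell. In macrophages it raised 1, Egr2 (3.98-fold), and lowered 6, among them Dusp6 (2.1-fold), Bcl2l1 (2.09-fold) and Ccnd1 (3.31-fold), where 6.77% of all genes rose and 7.2% fell. With rIL-13, Egr2 rose and 4 fell in macrophages, Dusp6, Id2, Ccnd1 and Bcl2l1, where 2.53% of all genes rose and 1.66% fell. The median of the target list with rIL-4 was -0.40 in microglia and -0.35 in macrophages. Several of these genes have many other inputs, and none of the counts is a test of a list.

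**Figure D5:**
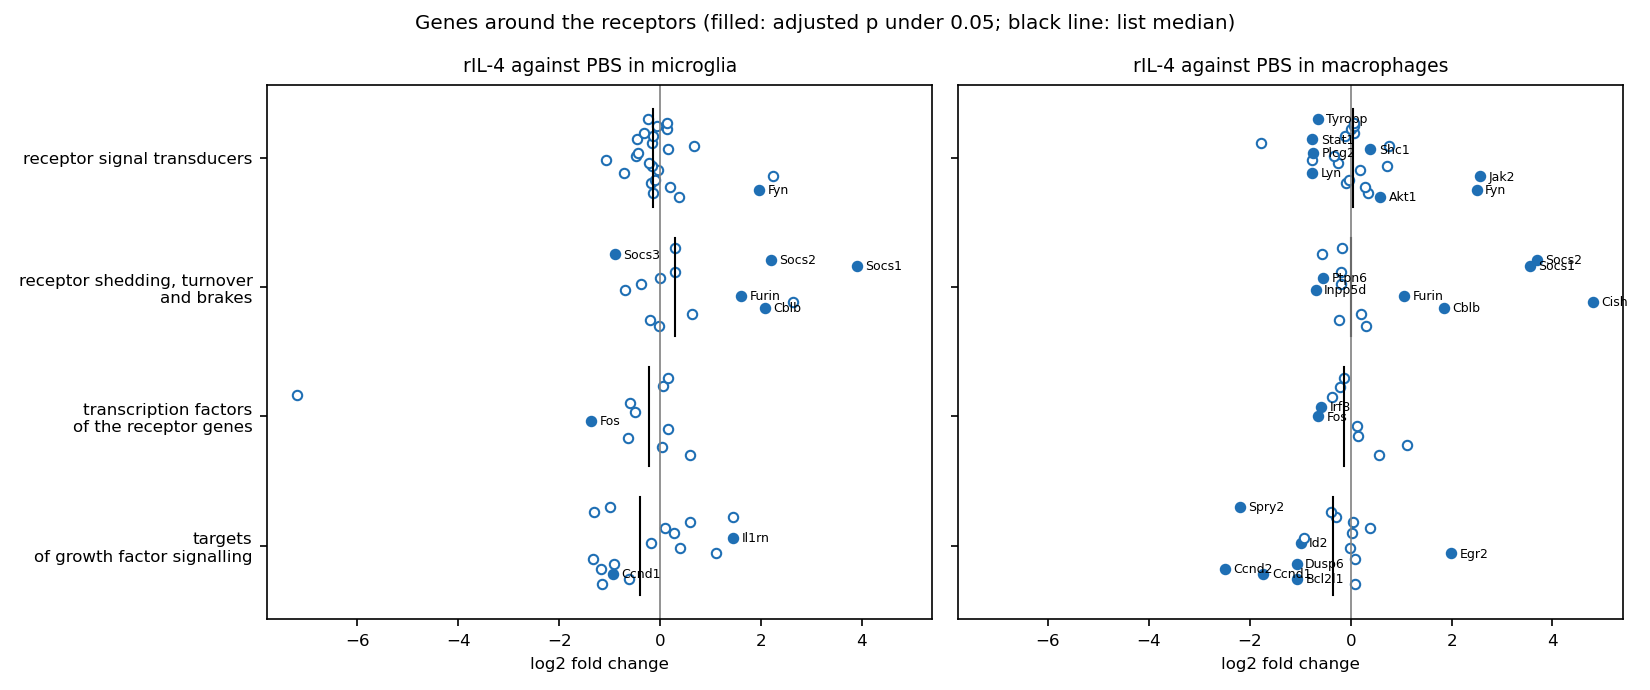
Log2 fold change with rIL-4 against PBS (horizontal axis) of the genes of 4 lists in microglia and macrophages. Filled and named points had an adjusted p under 0.05 in edgeR, and black lines are list medians. Socs1 and Socs2 lie farthest to the right among the filled points in microglia, and Cish in macrophages.

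The genes most like each member over the 18 libraries were found by Pearson's r of log2 CPM among 16570 genes, as a description of libraries that fall into 2 cell types. For Il34 these were Sod3, Lum and Apod (r = 0.989, 0.986 and 0.985), of which Lum is on the fibroblast and pericyte list. For Csf1r they were Fzd9 (0.889), Rasal3 (0.87) and Zfp827 (0.868), for Csf2ra B4galnt1 (0.986), Gm2a (0.98) and Itgb2 (0.972), and for Csf3r Mknk1 (0.929), Gm10645 (0.895) and Hcls1 (0.888). Csf2rb was most like P2ry6 (0.975), Bhlhe40 and Csf2rb2 (both 0.972), and Csf2rb2 most like Csf2rb, Cd300lf (0.97) and B430306N03Rik (0.969). Csf1 had no close match, with r of 0.777 for Cd244, 0.772 for Il18rap and 0.751 for Polr3d.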

How the data were processed

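RNA from sorted cells was made into SMART-seq2 libraries, which hold no molecular identifiers or strand information, and sequenced in pairs of 76 bases. Alignment by the authors used STAR 2.5.3a and GRCm38, and the deposited values are RSEM 1.3.0 expected counts for each gene, rounded and not normalized. A read that fits more than 1 gene is shared out by RSEM. The annotation release is not given in the sources used here; lengths and positions came from GENCODE M21, where 53360 of 53465 IDs matched without their version. Rows were used as deposited and 0 columns were left out.

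DE was tested with edgeR 4.0.16 in R 4.3.3 (TMM, filterByExpr, quasi-likelihood test, Benjamini-Hochberg adjustment over all genes kept). The 9 libraries of a cell type entered each treatment comparison, the 6 libraries of a treatment each cell type comparison, and all 18 the interactions. SEs were derived from the F statistic. Il34 was below the filter in macrophages. Levels are CPM with TMM factors over 18 libraries. The script was tested on simulated counts. DESeq2 1.42.0, other scalings and filters, summed paralogs, each replicate left out, and mice 2, 6 and 9 left out were alternatives, the last of which, like the Il34 ratios without a mouse, was chosen after seeing the data. Replicates were separate mice. Microglia and macrophages of a mouse share a number because they come from the same animal. Their deviations from the group means correlated at 0.0178 to 0.0943 for the same mouse. Between different mice of a treatment the correlations were -0.0817 to 0.0454, so that the ranges overlapped near 0.

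The members and lists were chosen with earlier results of these data known. All 7 members are named, with up to 4 called genes of a list with the lowest p, fixed family genes and the 3 genes most like each member. Intervals and floors of 3 counts cover counting error only. A gene of the list of signal transducers is not reported here.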

Additional observations from a re-analysis of the deposited data

How the results depend on the processing

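The 2 calls with rIL-4 in microglia became 3 with DESeq2, 1 with all genes with any count and with the paralogs summed (which leaves 1 row fewer), 0 to 1 without 1 replicate and 0 without mice 2, 6 and 9. The 1 call with rIL-4 in macrophages became 2 with all genes with any count, with a minimum of 10 counts per library, with DESeq2 and with only the 6 libraries compared, 0 with the paralogs summed and 0 to 1 without 1 replicate. DESeq2 called 2 genes in microglia between the cytokines where edgeR called 0, and 1 gene was called with rIL-13 in macrophages without mice 2, 6 and 9. The cause was not tested. The log2 fold change of Il34 with rIL-13 in microglia was -0.17 to 1.14 without 1 replicate and -0.20 without mice 2, 6 and 9, and that of Csf3r between cell types with rIL-4 was 0.25 without them. The difference in Csf2rb2 share between rIL-13 and PBS was -2.07 to 1.23 points without 1 replicate in microglia and -2.91 without mice 2, 6 and 9, and in macrophages -4.39 to 0.696, and 1.18 without mice 2, 6 and 9. With the mouse as replicate block, 6, 4 and 4 genes were called between cell types with PBS, rIL-13 and rIL-4, as without it, and 0 in either interaction. No paired analysis was possible because of separate mice in the treatment comparisons. Over the alternatives, calls among all genes ranged from 75 to 1215 for rIL-4 in microglia (345 in the reported fit), 14 to 322 for rIL-13 (57) and 0 to 557 between the cytokines (6). In macrophages they ranged from 1041 to 2660 (1900), 199 to 1163 (570) and 1 to 420 (34). Between cell types they ranged from 4237 to 6512 with PBS (6014), 2132 to 4868 with rIL-13 (3710) and 1684 to 4569 with rIL-4 (3174), and in the interactions from 52 to 689 (164) and 0 to 154 (4). Il34 in macrophages was limited by depth, at 3 counts per library.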
